A study of Rattus norvegicus with 8 samples.

Results

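The serotonin 5-HT2 receptor genes Htr2a, Htr2b and Htr2c were followed in RNA-seq libraries of medial prefrontal cortex from impulsive and non-impulsive rats. They are the 3 rows with these symbols among the 17168 genes in each deposited table. They were chosen by name, with earlier results of these data known. All rats were male Sprague-Dawley rats, and the tissue was homogenate. The labels name no allele or drug treatment and give no age. The HI group (high motor impulsivity, 4 libraries) came from rats in the top quartile of premature responding, scored in a task that rewards waiting for a light cue (1-CSRT), and the LI group (low motor impulsivity, 4 libraries) from rats in the bottom quartile. Libraries are called HI1 to HI4 and LI1 to LI4 after their titles. No label ties each library to its own rat, so p-values measure the spread between these libraries. The question the design poses for these genes is whether their transcripts differ between the behavioural extremes.

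The 5-HT2 receptors are the serotonin receptors that couple through Gq proteins to phospholipase C, which releases calcium from internal stores and activates protein kinase C. The 5-HT2A receptor, encoded by Htr2a, is the main target of serotonergic hallucinogens and is carried in cortex mostly by pyramidal cells and some interneurons. The 5-HT2C receptor, encoded by Htr2c, is found on neurons across the forebrain and very abundantly in choroid plexus, and its transcript is edited by adenosine deaminases. The 5-HT2B receptor, encoded by Htr2b, is best known from heart valve, gut and blood vessel. In rodents, 5-HT2A antagonists and 5-HT2C agonists both reduce premature responding, which is why the balance of these receptors is studied in motor impulsivity.

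In these libraries Htr2a and Htr2c were both readily detected and Htr2b was nearly absent. Htr2a had a higher mean in HI, with overlapping groups. Htr2c varied widely within both groups and its mean difference changed sign with single libraries. Neither gene passed the threshold in edgeR's quasi-likelihood test.

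Total counts ranged from 7354416 to 9476656 per library. Ribosomal RNA took between 0.406% (HI4) and 25.5% (HI2) of the counts. Some libraries stood apart in markers of neighbouring tissue. The summed level of 14 striatal projection neuron markers was 1272 CPM (counts scaled to a common library size with TMM factors) in LI2 and between 593 and 670 CPM in the other 7 libraries. The summed level of 11 meningeal and fibroblast markers was 1149 CPM in HI1 and between 48.7 and 297 CPM in the others. Pan-neuronal markers summed to between 6500 and 12272 CPM, and both deep-layer (936 to 1425 CPM) and upper-layer (346 to 574 CPM) cortical markers were present in every library. In homogenate, fewer cells of a type and less RNA per cell cannot be told apart.

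Htr2a, represented by the single transcript NM_017254 of 1566 bases, was supported by 87 to 227 counts per library. Its level in HI was 22.2 CPM in HI1, 14.4 CPM in HI2, 24.1 CPM in HI3 and 26.0 CPM in HI4. In LI it was 11.8 CPM in LI1, 14.5 CPM in LI2, 20.5 CPM in LI3 and 15.2 CPM in LI4. The 3 highest values of the 8 were HI libraries, but HI2 lay below 3 of the 4 LI libraries, so the groups overlapped. Means and SDs over 4 libraries were 21.7 ± 5.09 CPM for HI and 15.5 ± 3.67 CPM for LI. The log2 fold change, HI minus LI, was 0.49 ± 0.22 (SE), with a 95% interval from -0.00417 to 0.983. The unadjusted p was 0.0516 and the adjusted p over 11631 genes was 1.00 (edgeR's quasi-likelihood test, Benjamini-Hochberg).

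Htr2c, represented by NM_012765 of 4345 bases, had 234 to 667 counts per library. In HI its level was 24.2 CPM in HI1, 81.8 CPM in HI2, 51.4 CPM in HI3 and 53.1 CPM in HI4. In LI it was 39.7 CPM in LI1, 84.2 CPM in LI2, 72.6 CPM in LI3 and 35.6 CPM in LI4. Both groups spanned most of the range: the lowest library was HI1, the highest was LI2, and HI2 lay next to LI2. Means and SDs over 4 libraries were 52.6 ± 23.5 CPM for HI and 58.0 ± 24.1 CPM for LI. The log2 fold change was -0.14 ± 0.37 (SE), with a 95% interval from -0.97 to 0.69, an unadjusted p of 0.708 and an adjusted p of 1.00 (edgeR's quasi-likelihood test). The interval spans changes in either direction, so these libraries do not show that the level was alike in the groups.

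Htr2b, represented by NM_017250 of 2004 bases, was at the edge of detection. The deposited expected counts were 1.01 in HI1, 1.00 in HI4, 2.18 in LI2 and 2.19 in LI3, and 0 in HI2, HI3, LI1 and LI4. A count of 0 allows a level of up to 0.496 CPM in HI2, the library with the smallest scaled size among these 4, and between 0.312 and 0.319 CPM in the other 3. These limits cover counting error only. The low-count filter removed the gene from the fit. Means and SDs were 0.0591 ± 0.0693 CPM for HI and 0.127 ± 0.147 CPM for LI, a difference not detectable at this depth (two-sided exact permutation p = 0.429). No fold change is given, since every library lay below 3 counts.

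**Figure D1:**
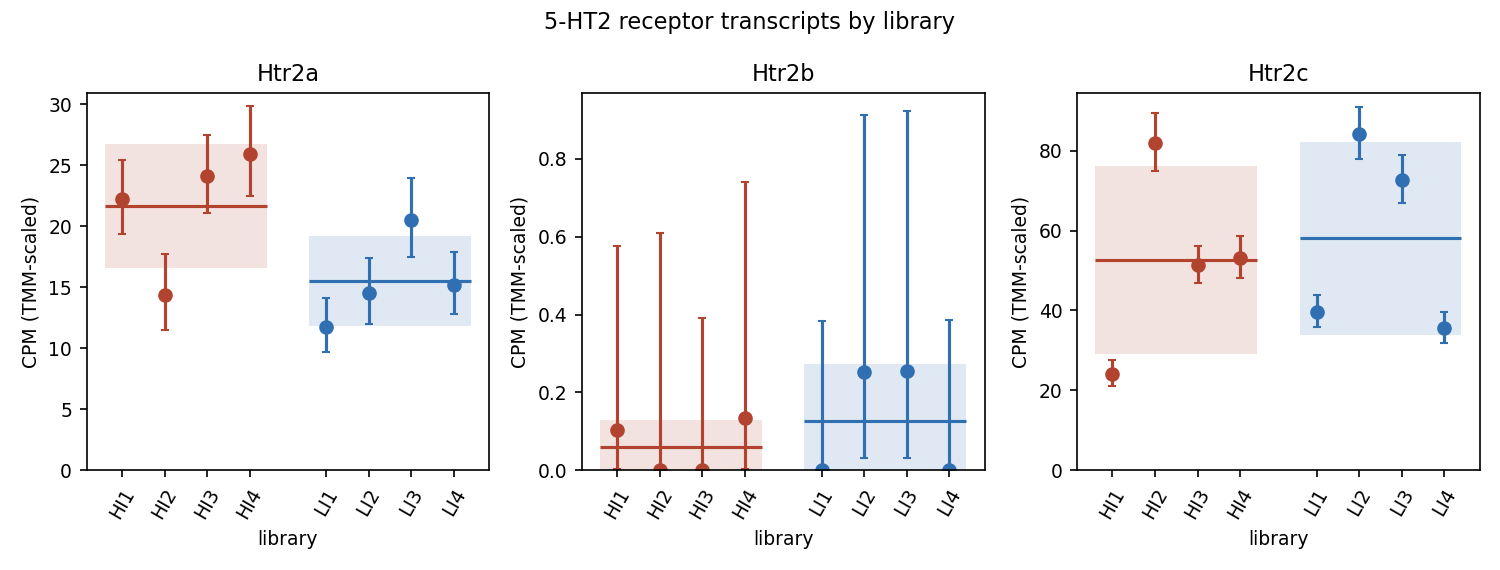
Level of each 5-HT2 receptor gene (CPM, vertical axis, separate scale per panel) in the 4 HI (red) and 4 LI (blue) libraries; bars on points are 95% Poisson counting intervals, lines are group means and bands are ± 1 SD (cut at 0). Htr2a lies at 14.4 to 26.0 CPM in HI and 11.8 to 20.5 CPM in LI, Htr2b is at or under 0.255 CPM throughout, and Htr2c spans 24.2 to 84.2 CPM with both groups spread across that range.

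Of the 2 members tested by the quasi-likelihood fit, 0 reached the adjusted threshold of 0.1, against 0% of the 11631 genes in it. Neither had an unadjusted p under 0.05, which 484 genes (4.16%) had. Neither separated the groups without overlap, which 3.46% of genes did in 1 direction or the other. DESeq2 called 0.327% of genes and gave an adjusted p of 0.939 for Htr2a (0.0483 unadjusted) and 1.00 for Htr2c. Genes to which DESeq2 gave no adjusted p, among them Htr1b, Gna14, Rgs16 and Tmem119, were counted as not called. The series' design text names Fisher's exact test. Run on counts summed within each group, it gave an adjusted p of 7.8e-07 for Htr2a (log2 fold change 0.43) and 3.03e-08 for Htr2c (-0.29). That test, which leaves out the spread between libraries, called 56.7% of all genes, so a call by it does not set the 2 receptors apart from other genes. It also used unscaled totals with ribosomal RNA included. Its median log2 fold change over all genes was -0.11, with 5117 genes called lower in HI and 1479 higher.

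The precision of a single library and the spread between libraries are given side by side. Counting error was 6.64% to 10.7% of the level for Htr2a, and the coefficient of variation between libraries was 23.5% in HI and 23.7% in LI. For Htr2c counting error was 3.87% to 6.54%, and the coefficient of variation was 44.7% in HI and 41.5% in LI. The highest Htr2c library exceeded the lowest 3.48-fold, against 2.21-fold for Htr2a. On the log2 CPM scale the SD of Htr2c over the 8 libraries was 0.63. That was above the SD of 98.5% of the 2088 genes whose mean lay within 0.5 log2 units of it, where the median SD was 0.22. For Htr2a the SD was 0.41, above that of 84.1% of the 1995 genes at a like level. Htr2c was thus among the more variable genes at its level, and its spread lay within both groups.

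The Htr2a difference kept its sign when any single library was left out, and that of Htr2c did not. For Htr2a the log2 fold change lay between 0.37 (without LI1) and 0.65 (without LI3), and the adjusted p between 0.895 and 1.00 (edgeR's quasi-likelihood test). For Htr2c it was 0.10 ± 0.32 without HI1 and 0.09 ± 0.39 without LI2, against -0.14 with all libraries. It was -0.43 without HI2, -0.29 without LI1, -0.32 without LI4 and -0.02 without LI3. Without HI1 and LI2 together, the libraries with the most meningeal and the most striatal marker RNA, Htr2c was 0.33 ± 0.30 and Htr2a 0.44 ± 0.29. LI2 also had the highest sum of 8 astrocyte and oligodendrocyte markers (7157 CPM, against 3085 to 5197 CPM in the others). Replicates 1 and 2 of both groups carried more ribosomal RNA (5.44% to 25.5%) than replicates 3 and 4 (0.406% to 3.96%). Within replicates 1 and 2 the HI minus LI difference in log2 CPM was 0.45 for Htr2a and -0.37 for Htr2c. Within replicates 3 and 4 it was 0.50 for Htr2a and 0.04 for Htr2c.

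**Figure D2:**
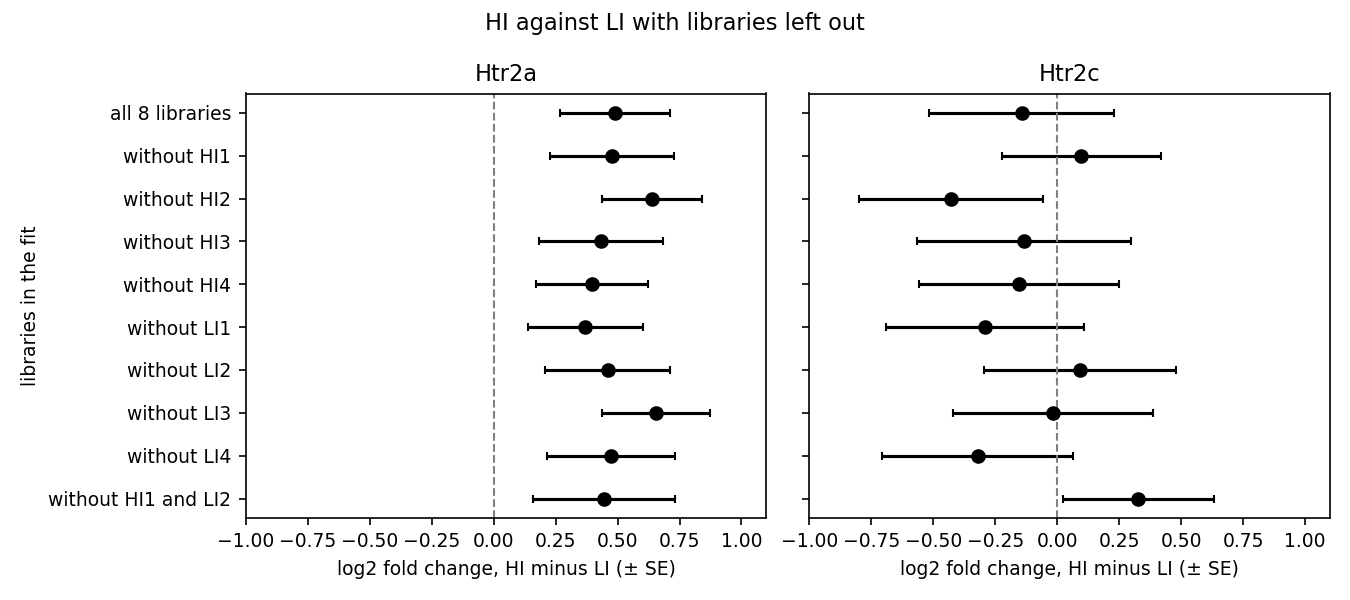
Log2 fold change of Htr2a (left) and Htr2c (right), HI minus LI, with its standard error (horizontal axis), from fits with all 8 libraries, without each library in turn, and without HI1 and LI2 together (vertical axis). Htr2a stays between 0.37 and 0.65, while Htr2c lies between -0.43 and 0.33 and crosses 0.

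Per transcript length, Htr2a and Htr2c stood at nearly the same mean level. On the deposited TPM scale, which divides by transcript length, Htr2a averaged 26.1 ± 7.69 and Htr2c 26.4 ± 10.5 (SD over 8 libraries). Each lay above about 65% of the listed genes (64.8% and 65.1%). They were the highest of 14 serotonin receptor genes in mean TPM over the 8 libraries. Together they made up 36.2% to 47.2% of the summed TPM of these genes in a library. The next were Htr1b at 20.6 ± 6.25 TPM and Htr1a at 16.7 ± 3.85 TPM, which overlapped both in range. In HI alone Htr1b averaged 25.5 ± 4.31 TPM, above Htr2c at 24.9 ± 10.3 TPM. In LI it averaged 15.8 ± 3.13 TPM, below both. Htr2b, at 0.110 ± 0.134 TPM, was the second lowest, above Htr3b. TPM depends on the transcript model, and the Htr2a model is much the shorter, so reads from any longer 3′ end would not enter its level.

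Which of the 2 receptors was higher differed between libraries. Htr2a exceeded Htr2c per length in 4 of 8 libraries, namely HI1, HI3, HI4 and LI4. The log2 ratio of Htr2a to Htr2c, from counts over effective length, was 1.38 in HI1, -1.001 in HI2, 0.41 in HI3 and 0.47 in HI4. It was -0.25 in LI1, -1.03 in LI2, -0.31 in LI3 and 0.28 in LI4. The Htr2a level was thus 2.61 times that of Htr2c in HI1, but 0.4995 times in HI2 and 0.490 times in LI2. The 95% counting interval of the ratio included equality in LI1 and LI4 only.

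The ratio was above 0 in 3 of 4 HI and 1 of 4 LI libraries. Means and SDs over 4 libraries were 0.32 ± 0.99 for HI and -0.33 ± 0.54 for LI. The difference of 0.65 had a 95% interval from -0.73 to 2.02, a two-sided exact permutation p of 0.257, and did not exceed the spread within groups; the smallest p that 4 against 4 allows is 0.0286. It was 0.29 without HI1, 1.09 without HI2 and 0.06 without HI1 and LI2 together. Within replicates 1 and 2 it was 0.83 and within replicates 3 and 4 it was 0.46. The scaling of a library cancels in this ratio. HI2, the library with the most ribosomal RNA, had the lowest ratio in HI, and the part of ribosomal RNA in the ratio was not tested.

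**Figure D3:**
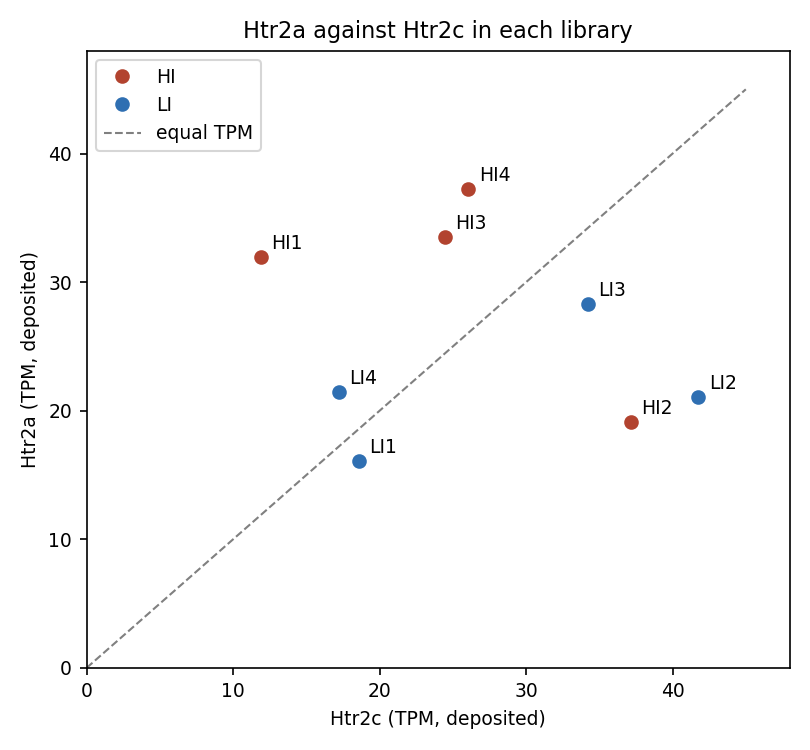
Htr2a (vertical axis) against Htr2c (horizontal axis) in each library, both in deposited TPM, with HI in red, LI in blue and a dashed line of equal level. HI1, HI3, HI4 and LI4 lie above the line, and HI2, LI1, LI2 and LI3 below it.

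No relation between the 2 genes across libraries was detectable. Pearson's r of their log2 CPM was -0.16 (exact permutation p = 0.710) and Spearman's rho -0.21 (exact permutation p = 0.619, n = 8 libraries). Adjusted over the 21 relations computed in this family these p-values were 0.975 and 0.867. Without HI4 and LI1, the libraries farthest from the median of Htr2a, r was -0.44. It was 0.07 without HI1. Groups of 4 are too small for a correlation within HI or LI.

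The other genes most like each receptor across the 8 libraries, by Pearson's r of log2 CPM, are given for each receptor in turn. For Htr2a they were Rab2b (r = 0.97), Robo1 (0.96), Tnfrsf11b (0.95), Sptlc2 (0.95) and Sdpr (0.94), and 39 of 11630 genes had r above 0.9. For Htr2c they were Gpd1 (r = 0.96), Slc26a9 (0.95), Cpne2 (0.92), Ash2l (0.91) and Trpc4 (0.91), and 5 genes had r above 0.9. The r of these 5 genes with Htr2a lay between -0.43 and -0.13, and that of the 5 Htr2a genes with Htr2c between -0.37 and 0.06. Since r between the receptors was -0.16, a gene this like either receptor cannot be as like the other. These values describe likeness over 8 points that share depth and dissection, and were not tested.

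Marker levels are given beside the receptors because Htr2c is abundant in striatum and choroid plexus. In LI2, where Htr2c was highest, Adora2a, an adenosine receptor gene of striatal projection neurons, stood at 39.0 CPM against 2.26 to 5.34 CPM in the other libraries. Drd2, the dopamine D2 receptor gene, stood at 32.6 CPM in LI2 against 4.14 to 12.8 CPM. HI2 had nearly the same Htr2c level as LI2, and its striatal marker sum, 593 CPM, was the lowest of the 8. LI3, the third highest for Htr2c, had a sum of 645 CPM. Single markers in HI2 went both ways. It lay next below LI2 for Drd1, the dopamine D1 receptor gene (18.5 against 24.6 CPM), and for Rgs9, also on the striatal list. For Drd2 only HI1 was lower than HI2 (5.29 CPM). The r of Htr2c with the striatal sum was 0.47 (exact permutation p = 0.212, adjusted 0.552). With the astrocyte and oligodendrocyte sum, also highest in LI2, it was 0.49 (exact permutation p = 0.219, adjusted 0.552). The part of striatal, astrocyte or oligodendrocyte RNA in the Htr2c level of LI2 was not tested.

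Choroid plexus markers were low. Ttr, transthyretin, the most abundant choroid plexus transcript, was at 0 in HI2, HI3, HI4 and LI4 and reached 1.55 CPM in HI1, the library with the lowest Htr2c. Of the 12 markers, 6 were below 1 CPM in every library (Folr1, Clic6, Slc4a5, Otx2, Sostdc1 and Tmem72) and 0 were at 0 in all. Their sum ranged from 13.1 to 44.1 CPM in HI and from 10.5 to 25.3 CPM in LI. In HI4 it was mostly Prlr, the prolactin receptor gene, at 41.0 CPM.

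Meningeal and fibroblast markers were higher in HI on average, with 10 of 10 tested genes above 0 in log2 fold change and a median of 1.69. But 0 reached the adjusted threshold in edgeR, where 5 had an unadjusted p under 0.05, and DESeq2 called 0. Over all genes 48.5% were above 0 and 4.16% had an unadjusted p under 0.05 (edgeR). Without HI1 and LI2 together 9 of 10 were above 0, with a median of 0.94, and 1 had an unadjusted p under 0.05. Their sum was 1149, 297, 231 and 108 CPM in HI1 to HI4 and 48.7, 208, 59.3 and 268 CPM in LI1 to LI4. HI1, with the most of this RNA, had the least Htr2c, and its part in that value was not tested. The sum of 7 microglia markers was lower in every HI library (221 to 266 CPM) than in every LI library (282 to 296 CPM). Of single genes, 3.46% separated the groups in 1 direction or the other. All 7 markers had a log2 fold change below 0, with a median of -0.29, and 0 reached the adjusted threshold in edgeR or DESeq2. However, DESeq2 gave no adjusted p for Aif1, P2ry12 and Tmem119 (DESeq2 unadjusted p = 0.0013 for Tmem119). In edgeR 2 of the 7 had an unadjusted p under 0.05.

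Upper-layer pyramidal markers are given beside both receptors. The 5 markers used (Cux2, Rorb, Rasgrf2, Calb1 and Lhx2) summed to 574, 397, 458 and 522 CPM in HI1 to HI4 and to 485, 346, 461 and 422 CPM in LI1 to LI4. HI1 had the highest sum and the least Htr2c, and LI2 the lowest sum and the most Htr2c. For Htr2c, r on the log2 scale was -0.72 (exact permutation p = 0.0420, adjusted 0.385 over 21 relations) and rho -0.64 (exact permutation p = 0.0962, adjusted 0.483; n = 8 libraries). Without HI1 and LI2, the libraries farthest from the sum's median, r was -0.27, but leaving them out also narrows the range of the sum. For Htr2a r was 0.55 (exact permutation p = 0.158, adjusted 0.552; n = 8) and rho 0.48 (exact permutation p = 0.243, adjusted 0.729), and without HI1 and LI2 r was 0.46.

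Of all marker sums the choroid plexus sum had the highest r with Htr2a, at 0.85 (exact permutation p = 0.0106, adjusted 0.223; n = 8), with rho 0.86 (exact permutation p = 0.0107, adjusted 0.225) and r of 0.80 without HI4 and LI2. That sum was mostly Prlr in HI3, HI4, LI1, LI3 and LI4. With the sum of 7 pan-neuronal markers r of Htr2a was 0.70 (exact permutation p = 0.0550, adjusted 0.385; n = 8) and rho 0.67 (exact permutation p = 0.0831, adjusted 0.483), and r was 0.52 without HI4 and LI3. With the microglia sum r was -0.64 (exact permutation p = 0.0873, adjusted 0.458, n = 8) and rho -0.62 (exact permutation p = 0.115, adjusted 0.483). Without HI3 and HI4, the libraries farthest from that sum's median, r was -0.17, but leaving them out also narrows its range. With the deep-layer pyramidal sum r of Htr2a was 0.37 (exact permutation p = 0.374, adjusted 0.655, n = 8). Its rho was 0.62 (exact permutation p = 0.115, adjusted 0.483), and r was 0.93 without HI1 and LI1. The part of any of these cell types in the Htr2a difference was not tested. None of the 21 relations passed after adjustment.

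**Figure D4:**
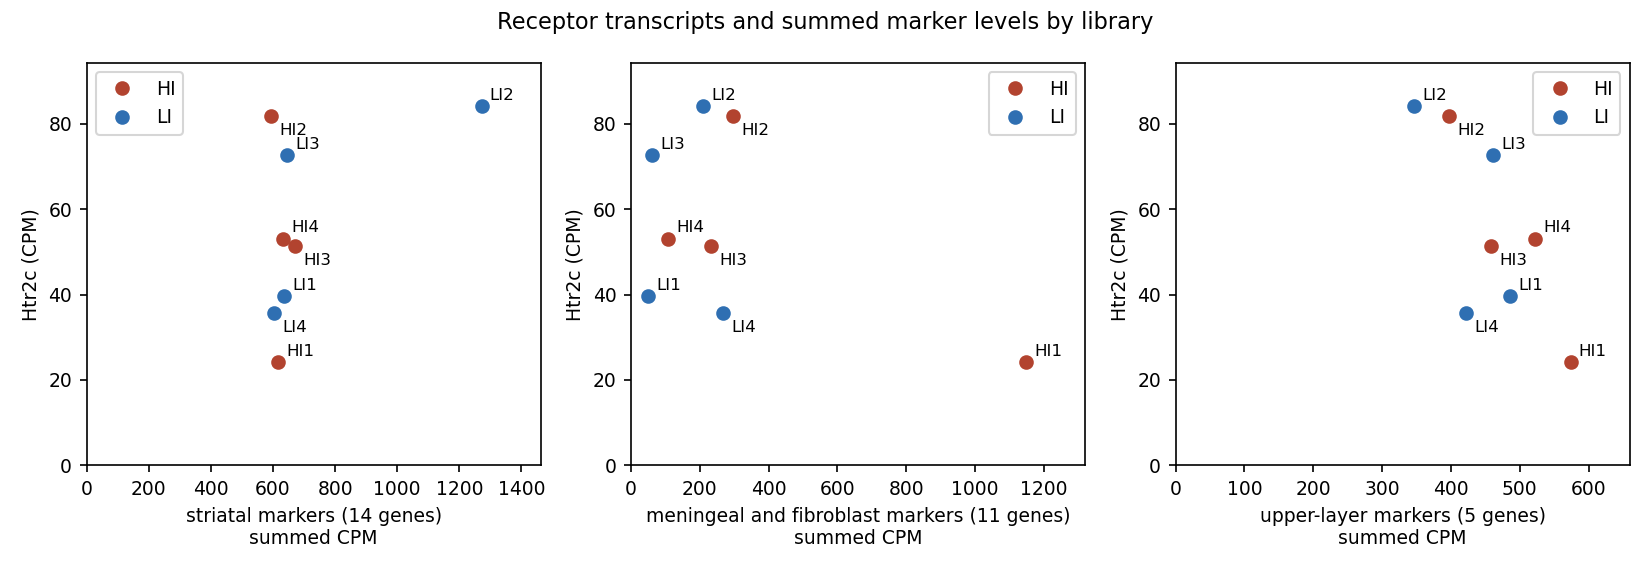
Receptor level (CPM, vertical axes) against the summed CPM of a marker list (horizontal axes) in the 4 HI (red) and 4 LI (blue) libraries: Htr2c against striatal markers, Htr2c against meningeal and fibroblast markers, and Htr2c against upper-layer markers. LI2 stands alone at 1272 CPM of striatal markers, HI1 stands alone at 1149 CPM of meningeal markers, and the upper-layer sum is highest in HI1 (574 CPM) and lowest in LI2 (346 CPM), the libraries with the least and the most Htr2c.

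Genes of the Gq pathway below the 5-HT2 receptors had mostly higher values in HI. In edgeR 0 of 21 reached the adjusted threshold in either direction, and DESeq2 called 1, Kcnq3. In edgeR 6 had an unadjusted p under 0.05, which 4.16% of all genes had. Among the 6, the protein kinase C gene Prkcd was lower in HI (-0.45 ± 0.19, unadjusted p = 0.0366). Without HI1 and LI2 together 3 of the 21 had an unadjusted p under 0.05. Of the 21, 16 had a log2 fold change above 0, with a median of 0.16, against 48.5% of all genes above 0 and a median of -0.01. Gnaq, the Gq alpha subunit itself, averaged 62.0 ± 12.3 CPM over the HI and 48.2 ± 4.57 CPM over the LI libraries (SD), a log2 fold change of 0.36 ± 0.15. Itpr1, the main neuronal inositol trisphosphate receptor, averaged 1000.3 ± 35.7 against 838 ± 67.1 CPM, with every HI library above every LI library, which 2.31% of genes showed (0.25 ± 0.10). Plcb1, the phospholipase C of cortical neurons, differed by 0.06 ± 0.18. Gna14, a less abundant Gq-class subunit, differed by 0.83 ± 0.24, and Kcnq3, an M-current channel subunit closed by Gq signalling, by 0.40 ± 0.11 (DESeq2 adjusted p = 0.0968).

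Genes that damp receptor signalling went in both directions, with 7 of 11 above 0, a median of 0.13 and 0 past the threshold (edgeR; 3 had an unadjusted p under 0.05, and DESeq2 called 1, Adrbk2). The receptor kinase gene Adrbk2 differed by 0.43 ± 0.11 (DESeq2 adjusted p = 0.0981) and the Gq-acting regulator Rgs16 by 0.84 ± 0.23. Arrb2, beta-arrestin 2, differed by -0.13 ± 0.17.

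Among 15 genes for proteins that bind 5-HT2 receptors, 11 were above 0, with a median of 0.17, and 0 passed (edgeR; 1 had an unadjusted p under 0.05, and DESeq2 called 0). Mpdz, the multi-PDZ protein that binds the tail of the 5-HT2C receptor, averaged 151 ± 15.8 CPM over HI and 123 ± 9.23 CPM over LI libraries (0.30 ± 0.11). Its HI libraries all lay above its LI libraries, as for 2.31% of genes. Dlg4, the postsynaptic scaffold PSD-95, differed by -0.13 ± 0.15 and Map1a, a microtubule protein, by 0.23 ± 0.13.

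The 3 adenosine deaminase genes differed by at most 0.17. Adarb1, whose enzyme ADAR2 edits Htr2c transcripts, averaged 222 ± 24.2 CPM over HI and 234 ± 26.2 CPM over LI libraries (-0.07 ± 0.12). Adar differed by 0.17 ± 0.12 and Adarb2, which has no known editing activity, by 0.15 ± 0.21. None of the 3 had an unadjusted p under 0.05 in edgeR's or DESeq2's test. Gene-level counts hold no information on the editing of Htr2c itself.

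Transcripts known to be induced in cortex by 5-HT2A agonists were above 0 in 11 of 11, with a median of 0.44. Over all genes 48.5% were above 0. Of the 11, 0 passed in edgeR, and DESeq2 called 0. In edgeR 2 had an unadjusted p under 0.05, which 4.16% of all genes had. HI and LI libraries overlapped for each of the 11. The 2 with the smallest p were the immediate early transcription factor genes Egr2 (1.09 ± 0.40) and Nr4a1 (0.66 ± 0.28). Without HI1 and LI2 together 10 of 11 were above 0, the median was 0.25 and 0 had an unadjusted p under 0.05 (edgeR). Many stimuli induce these genes.

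**Figure D5:**
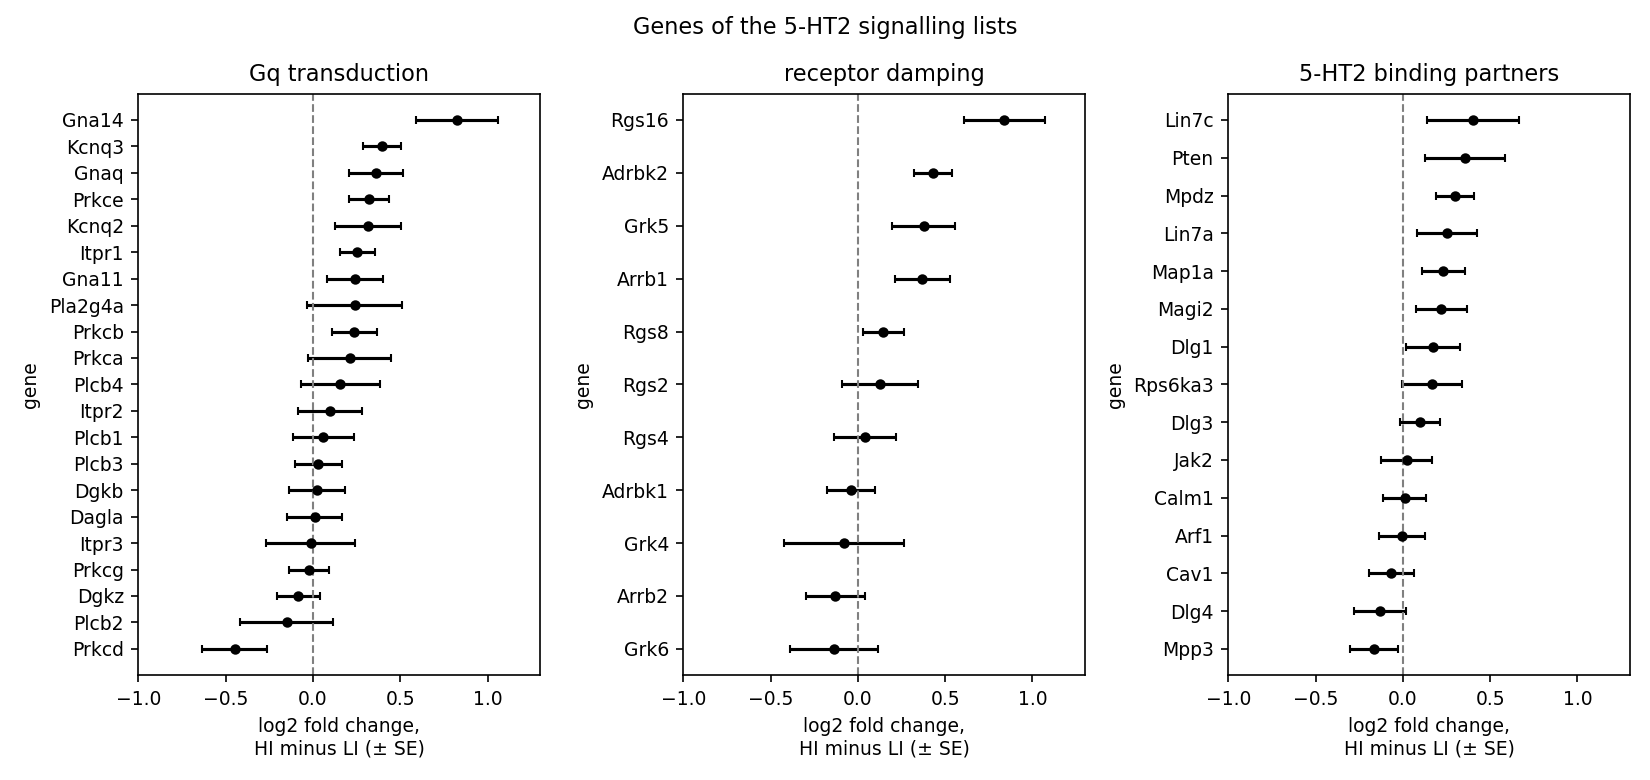
Log2 fold change, HI minus LI, with its standard error (horizontal axes) for each gene (vertical axes) of the Gq transduction, receptor damping and 5-HT2 binding partner lists. Values above 0 outnumber those below in each list (16 of 21, 7 of 11 and 11 of 15), and none reached an adjusted p of 0.1 in the edgeR fit.

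Genes that mark serotonin neurons were nearly absent. Tph2, the neuronal enzyme of serotonin synthesis, had 0 to 8 counts and Slc6a4, the serotonin transporter, 0 to 4 counts per library. Both are made in the raphe nuclei, whose fibres but not cell bodies reach this cortex. Maoa, which breaks down serotonin, differed by 0.23 ± 0.11 and the uptake transporter gene Slc22a3 by 0.35 ± 0.27. Of the 7 tested genes of supply and removal 3 were above 0 and 0 passed (edgeR and DESeq2; 0 had an unadjusted p under 0.05). Among the other serotonin receptors, Htr1b averaged 13.1 ± 1.97 CPM over HI and 8.11 ± 1.63 CPM over LI libraries, but did not pass (0.70 ± 0.19). Every HI library lay above every LI library for Htr1b, which 2.31% of genes showed. Htr1a differed by 0.26 ± 0.24.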

How the data were processed

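RNA-seq was run on 8 libraries of rat medial prefrontal cortex, 4 HI and 4 LI, grouped and numbered by their titles. Per the file headers, the deposited columns are the expected count of reads per gene, TPM, FPKM and transcript lengths; FPKM was not used. The submitters' processing notes list Bowtie2 2.1.0. With quantifier, annotation and build not given in the sources used here, coordinates are left out. The transcripts of all 3 receptor genes matched their symbols in a RefSeq gene table (assembly GRCr8, names only). Expected counts were rounded; those of Htr2a and Htr2c were whole (within 0.005) in every library.

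Counts were TMM-scaled, filtered with filterByExpr (minimum count 10, minimum total 15) and tested with edgeR 4.0.16 (quasi-likelihood, R 4.3.3) on 11631 genes, at an adjusted p of 0.1, the alpha in the design text. Standard errors are the absolute log2 fold change over the square root of F. The log2 CPM used a prior count of 2. Single values used exact permutation tests (70 assignments, threshold 0.05); marker sums were log2-transformed. The interval of the ratio difference uses the pooled SD. DESeq2 1.42.0, limma 3.58.1, other scalings and filters, a length offset, a replicate block and left-out libraries were alternatives. The edgeR, DESeq2 and limma-voom fits were tested on simulated data. Members, lists and marker genes were chosen with earlier results of these data known. Named are the members, the 2 genes of smallest p in each pathway list, a fixed set of pathway genes, and the 5 genes most like each receptor. Other genes with values were named after their values were seen. The fit without HI1 and LI2, the relations to marker sums, and the ribosomal RNA covariate were chosen after seeing the data. 1 upper-layer marker is not reported here.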

Additional observations from a re-analysis of the deposited data

Results flagged for a closer look

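In LI2 the summed level of the striatal projection neuron markers, 1272 CPM, stood apart from the other 3 LI libraries (602 to 645 CPM): its gap to the next value took 0.936 of the group's range, above Dixon's critical value of 0.829 for 4 samples. The check was made in 28 groups, of which chance flags about 5%. No value of Htr2a, Htr2b, Htr2c or the Htr2a to Htr2c ratio was an outlier by this measure. Without LI2 the log2 fold change of Htr2c was 0.09 and that of Htr2a 0.46.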

How the results depend on the processing

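Across planned and added alternatives Htr2a kept a higher mean in HI, between 0.43 and 0.67 in log2 fold change, and between 0.37 and 0.65 without single libraries. It passed the threshold only with Fisher's exact test on summed counts (0.43). Htr2c was -0.29 and passed with that test, and its sign turned without HI1 (0.10), without LI2 (0.09) and without both (0.33, added after seeing the data); without single libraries it lay between -0.43 and 0.10. With each library's ribosomal RNA share in the model, also added, Htr2c was -0.37 and Htr2a 0.67 (edgeR adjusted p 0.756 and 0.589). The cause of these shifts was not tested. Over all genes 0 passed in the main test, 38 in DESeq2 and 6596 in Fisher's test, and 0 without any single library. The Htr2a to Htr2c ratio difference lay between 0.29 and 1.09, and the Htr2b difference between -0.110 and -0.0250 CPM, without single libraries, with no test passing. Without single libraries the correlation of Htr2a with Htr2c lay between -0.37 and 0.07 (0.0714 without HI1, the only positive value). Without HI4 and LI1 together it was -0.44.

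Over all genes replicate numbers did not consistently pair the libraries. Deviations of same-numbered HI and LI libraries correlated at 0.22, 0.54, -0.05 and 0.06, and HI4 correlated best with LI3 (0.78). With the replicate number as a block the log2 fold change was 0.49 ± 0.19 (SE) for Htr2a and -0.17 ± 0.21 for Htr2c. Without the block the SEs were 0.22 and 0.37. The unadjusted p with the block was 0.0339 for Htr2a and 0.444 for Htr2c (edgeR's quasi-likelihood test), and 0 genes passed over all genes. The sign-flip p of the ratio difference (0.65) was 0.125, the smallest 4 pairs allow, with HI higher in every pair. For the Htr2b difference (-0.0678 CPM) the sign-flip p was 0.5. With no low-count filter, edgeR's quasi-likelihood test gave Htr2b an unadjusted p of 0.528 (adjusted 0.999). The filter left no Htr2b value in the other fits. Depth limits Htr2b, where counts of 0 to 2 per library cannot show a difference.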
